A study of Mus musculus with 30 samples.

Results

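Fast-fibre sarcomere genes were followed as a set of 10: the myosin heavy chains Myh1, Myh2 and Myh4, the myosin light chain Mylpf, the troponins Tnnc2, Tnni2 and Tnnt3, the Z-disc protein Actn3, the calcium pump Atp2a1 and the calcium store protein Casq1. They were chosen by name as fast-twitch contractile and calcium genes, and every probe set annotated to one of these symbols alone was taken. All 10 were measured, among 17782 genes, by 12 probe sets among 31563 with 1 symbol. Myh1 and Myh4 had a pair of probe sets each and the other genes had 1, and 0 probe sets named a member together with another gene.

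Muscle and kidney came from 15 mice aged 6 weeks, with 1 array per tissue and animal. The mice were wild type (WT) or Kif3aΔTub, for which the genotype label is Kif3aKSPCre: Cre recombinase from a kidney-specific promoter removes the kinesin subunit Kif3a from kidney tubules, and muscle keeps the gene. Animals of both genotypes were given either PBS or the trap, sActRIIB-Fc, which is a soluble form of activin receptor IIB that captures activins and related ligands. The trap was given at 10 mg/kg into the peritoneum weekly, as 2 injections. Per tissue there were 3 arrays of PBS-treated wild types, and treated wild types, untreated mutants and treated mutants had 4 each, every one from a separate animal. The labels do not say which muscle was taken, so its fibre composition is not known from them. Of 8 general muscle markers, 0 stayed at or below 5.11 (the mean of proximal tubule markers in muscle) over the 15 muscle arrays, and their summed signal lay between 16.33 and 16.49 on the log2 scale.

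Skeletal muscle shortens when myosin heads pull on actin filaments, and the heavy chain a fibre makes sets how fast it does so. Fast fibres use Myh2 (type IIA), Myh1 (type IIX) or Myh4 (type IIB), and slow fibres use Myh7. The signal to contract is calcium, which Casq1 holds inside the sarcoplasmic reticulum, which binds to troponin C on the thin filament, and which Atp2a1 (SERCA1) pumps back so that the fibre relaxes. Slow fibres make their own versions of most of these proteins.

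The fast and developmental heavy chain genes lie side by side on mouse chromosome 11, in the order Myh3, Myh2, Myh1, Myh4, Myh8, Myh13. Their promoters are shown because the 3 adult fast genes share an uninterrupted run of 20 bases, in capitals here, which 3 of 32851 RefSeq promoters hold, namely those of Myh1, Myh2 and Myh4. The run starts 130 bases before the annotated start of Myh2, 165 before that of Myh1 and 163 before that of Myh4. Each sequence is the 250 bases before the start, 5′ to 3′ on the gene's strand, from RefSeq on GRCm38.p6. They cover chr11:67170777-67171026 (plus strand) for Myh2, chr11:67199852-67200101 (plus strand) for Myh1 and chr11:67237562-67237811 (plus strand) for Myh4.
Myh2: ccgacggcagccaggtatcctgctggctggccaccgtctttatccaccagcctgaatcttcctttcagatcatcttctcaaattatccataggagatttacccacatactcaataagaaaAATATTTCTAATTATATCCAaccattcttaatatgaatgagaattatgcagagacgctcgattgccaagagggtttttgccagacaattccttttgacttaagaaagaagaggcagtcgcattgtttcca
Myh1: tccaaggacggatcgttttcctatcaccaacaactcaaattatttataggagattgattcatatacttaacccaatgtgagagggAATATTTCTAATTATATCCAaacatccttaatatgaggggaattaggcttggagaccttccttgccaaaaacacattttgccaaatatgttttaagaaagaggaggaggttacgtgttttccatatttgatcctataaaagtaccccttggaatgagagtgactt
Myh4: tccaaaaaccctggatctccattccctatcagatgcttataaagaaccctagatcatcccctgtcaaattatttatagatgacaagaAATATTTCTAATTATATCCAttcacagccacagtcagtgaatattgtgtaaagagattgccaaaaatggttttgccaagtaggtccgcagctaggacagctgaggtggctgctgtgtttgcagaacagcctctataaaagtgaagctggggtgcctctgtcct

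The promoters of the calcium genes Casq1 and Atp2a1 are shown because every untreated mutant array read lower for Casq1 and higher for Atp2a1 than every untreated wild-type array. Such a separation was found for 23.3% of all genes, and for Actn3, whose promoter was unmatched. The Atp2a1 difference did not pass the adjusted threshold used below. Capitals mark CANNTG, the E-box letters that myogenic factors such as MyoD can bind. They cover chr1:172219896-172220145 (minus strand) for Casq1 and chr7:126463074-126463323 (minus strand) for Atp2a1.
Casq1: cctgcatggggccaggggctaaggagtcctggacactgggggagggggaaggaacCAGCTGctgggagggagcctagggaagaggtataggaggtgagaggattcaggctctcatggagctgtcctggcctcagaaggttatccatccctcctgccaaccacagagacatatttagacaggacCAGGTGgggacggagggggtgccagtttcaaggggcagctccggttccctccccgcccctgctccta
Atp2a1: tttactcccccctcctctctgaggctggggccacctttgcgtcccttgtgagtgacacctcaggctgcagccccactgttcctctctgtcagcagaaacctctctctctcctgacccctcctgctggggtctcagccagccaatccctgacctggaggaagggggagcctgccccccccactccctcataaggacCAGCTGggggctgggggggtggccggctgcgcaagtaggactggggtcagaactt
RefSeq promoters were matched for 7 of the 10 genes, and Tnni2, Tnnt3 and Actn3 were unmatched. CANNTG, which reads the same on both strands, stood in the 250 bases of 5 of the 7, against 66.2% of all promoters of that length. TATAAA on either strand stood in 2 of the 7, Myh1 and Myh4, against 12.4% of all promoters. The MEF2 motif was found in the same pair, against 2.92% of all promoters, and overlapped a TATAAA match in both. These letter matches describe the sequence and show no binding.

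In muscle the members were among the brightest features of the array. The values are the authors' deposited log2 intensities, on which a difference of 1 is a doubling of signal. Tnnc2, the calcium sensor of fast troponin, lay within 0.041 of the highest value of the array on all 15 muscle arrays. Mylpf, the regulatory light chain of fast myosin, lay within 0.21 of it, Tnni2 (the inhibitory troponin) within 0.20, the brighter probe set of Myh4 within 0.33, Atp2a1 within 0.34, Tnnt3 (the tropomyosin-binding troponin) within 0.39 and Actn3 within 0.47. Casq1, Myh1 and Myh2 had more room, at 0.69 to 1.76, 0.73 to 1.10 and 0.86 to 1.87 below the maximum. The second probe set of Myh4 lay 0.80 to 1.40 below the maximum and that of Myh1 0.83 to 1.30. Mylpf held the same value, 14.37, on 5 of the 15 arrays to 4 decimals, while 3.5% of all probe sets repeated any value. Signals this near the top of the scale may leave little room to register a change, which was not tested. Of 85 genes with a mean muscle signal above 13, 22.4% passed the threshold used below in untreated mutants, where 16% of all genes did. For the trap in mutants 3.53% of them passed, where 6.33% of all genes did. The levels of different probe sets are not compared here.

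The spread between arrays of a group differed widely among the members. The residual standard deviation was 0.024 for Tnnc2, 0.026 for Tnni2 and 0.032 for Tnnt3, against a median of 0.19 over all genes. It was 0.22 for Casq1 and 0.29 for Myh2. The standard errors below come from limma, which draws every gene's spread toward a common value, and for the tightest members they exceed what their own arrays would give.

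**Figure D1:**
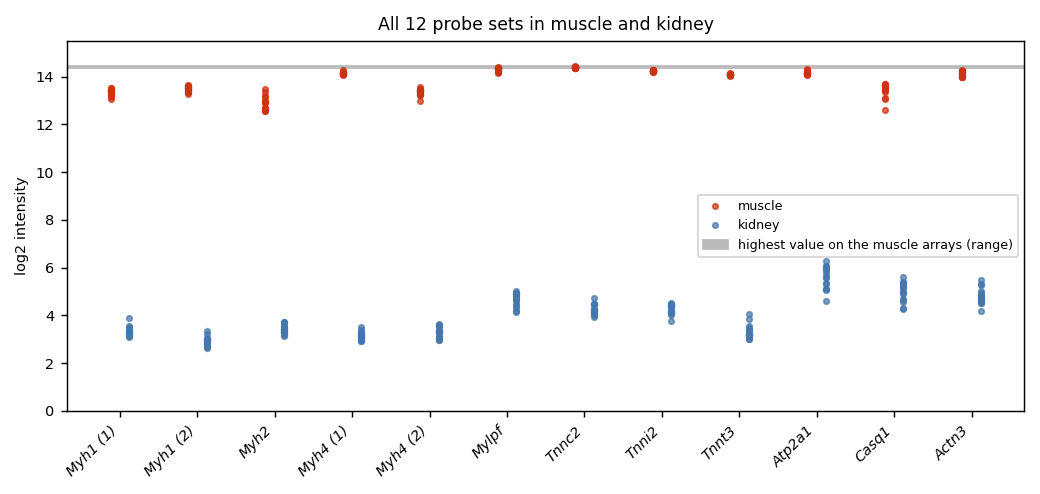
Log2 intensity of all 12 probe sets in muscle (red) and kidney (blue), 15 arrays each, with the range of the highest value on the muscle arrays as a grey band. The muscle values crowd under the band, with Tnnc2 within 0.041 of it on every array, and all kidney values lie far below, with means of 2.93 to 5.57.

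The first comparison set untreated mutant muscle against untreated wild-type muscle, the effect of losing Kif3a in kidney tubules on a distant tissue. Of the 10 members, 1 changed: Casq1 fell. The other 9 did not pass the test, and their differences ran from -0.13 for Mylpf to 0.33 for Myh2. The background was high, since 16% of all genes passed here, and 9.04% of all genes passed in the lower direction. At an unadjusted p under 0.05, 2 of 10 members (Casq1 and Actn3) stood against 29.2% of all genes. The median absolute change was 0.091 over the members and 0.18 over all genes. Arrays of the genotypes did not overlap for 3 of 10 members (Casq1, Atp2a1 and Actn3), against 23.3% of all genes.

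Casq1, the main calcium buffer of the fast sarcoplasmic reticulum, read 13.61, 13.60 and 13.70 in the wild-type animals 1 to 3 under PBS. The untreated mutants 1 to 4 read 12.62, 13.52, 13.09 and 13.04. All 4 mutants lay below all 3 wild types, but mutant 2 lay just under the lowest wild type and the other 3 lay well below. The fold change was 0.67 (95% interval 0.53 to 0.85), a log2 difference of -0.57 ± 0.16 (SE, adjusted p = 0.0218). The call was lost without mutant 1 (-0.42, adjusted p = 0.0507) and without wild type 1, 2 or 3 (adjusted p = 0.0525, 0.0602 and 0.071), and without mutant 2 the difference was -0.72 (adjusted p = 0.00154).

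Control signals of the arrays shifted between these groups as well, and whether they reflect RNA quality was not tested. The 3 prime 18S ribosomal RNA control read 11.16 to 12.13 in the untreated mutants and 11.95 to 12.37 in the untreated wild types, and mutant 2 was the highest of the mutants. The actin control's 3 prime minus 5 prime signal was -0.061 to 0.14 in the mutants and 0.16 to 0.18 in the wild types. With the 18S signal as a covariate, the Casq1 difference was -0.48 (adjusted p = 0.15), and with the actin signal it was -0.47 (adjusted p = 0.128). The middle and 5 prime 18S controls, added as covariates after seeing the data, gave -0.33 (adjusted p = 0.508) and -0.42 (adjusted p = 0.451). The middle control read 12.98 to 13.49 in the mutants and 13.53 to 13.62 in the wild types. The 5 prime control read 13.36 to 13.75 and 13.84 to 13.87. Neither of these nor the actin signal overlapped between the untreated genotypes. Fits with them cannot tell genotype from control signal in this comparison, here or below. Their standard errors for Casq1 were 0.22 (middle) and 0.24 (5 prime), against 0.16 without a covariate. All 8 fibroblast markers fell in the same comparison, against 9.04% of all genes called lower. Their summed signal was 12.72 to 13.18 in the mutants against 14.83 to 14.96 in the wild types. Among other marker lists 6 of 7 tendon, 3 of 8 macrophage, 2 of 4 nerve, 2 of 7 endothelial and 2 of 7 smooth muscle markers fell. Of 5 satellite cell markers 2 fell and 1 rose, and 0 of 6 adipocyte markers passed. The part of these shifts in the Casq1 result was not tested. The sum of the general muscle markers was 16.38 to 16.49 in the mutants and 16.40 to 16.44 in the wild types. That sum includes markers near the array maximum, such as Ckm (14.29 to 14.35) and Acta1 (14.23 to 14.35), and may have had little room to move. Of these 8 markers 1 passed, in the lower direction, against the same 9.04% of all genes, and their differences ran from -0.41 to 0.56. In whole muscle, fewer cells of a type and less RNA per cell cannot be told apart.

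Atp2a1, which returns calcium to the store that Casq1 buffers, read 14.11, 14.06 and 14.16 in wild type and 14.33, 14.18, 14.25 and 14.29 in mutants 1 to 4. Every mutant was above every wild type, with mutant 2 the nearest to them. The difference of 0.15 ± 0.082 (SE) did not pass (adjusted p = 0.238).

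Actn3, the fast-fibre alpha-actinin that anchors thin filaments at the Z-disc, read 13.98, 13.97 and 14.06 in wild type. It read 14.18, 14.14, 14.26 and 14.22 in mutants 1 to 4, all above the wild types. The difference of 0.20 ± 0.087 (SE) had an adjusted p of 0.14. It passed with limma's array weights (0.23, adjusted p = 0.0478) and with a prior that follows the mean level (0.20, adjusted p = 0.037), and with the middle 18S covariate it was 0.11 (adjusted p = 0.756). Over all alternatives its adjusted p ran from 0.037 to 0.756.

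The heavy chains did not pass. Myh2 read 12.67, 12.58 and 13.16 in wild type and 12.91, 12.93, 13.20 and 13.49 in mutants 1 to 4. Wild type 3 lay among the mutants, so the groups overlapped. The difference was 0.33 (95% interval -0.093 to 0.75, adjusted p = 0.301). It was 0.51 without wild type 3, 0.22 without wild type 2 and 0.21 without mutant 4. With the 3 prime, middle and 5 prime 18S covariates it was 0.22, 0.21 and -0.12. Its sign was kept in 18 of 19 alternatives, all but the 5 prime fit, which cannot tell genotype from control signal. Myh1 differed by 0.030 (-0.18 to 0.24) and Myh4 by 0.056 (-0.12 to 0.23), with adjusted p of 0.883 and 0.72. Their second probe sets gave 0.068 and 0.12, with adjusted p of 0.73 and 0.558 in a fit of every probe set, where 1 of the 12 probe sets (Casq1) and 15.4% of all probe sets passed.

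Mylpf, which sits on the neck of the fast heavy chains, read 14.37, 14.37 and 14.31 in wild type. It read 14.20, 14.37, 14.17 and 14.15 in mutants 1 to 4. Mutant 2 lay with the wild types and the other 3 lay below them, giving a difference of -0.13 ± 0.085 (SE, adjusted p = 0.36). With the 3 prime, middle and 5 prime 18S covariates it was -0.059, -0.0016 and 0.0071. The troponins differed by -0.0096 (Tnnc2), -0.0095 (Tnni2) and 0.012 (Tnnt3), each with a 95% interval that lay between -0.18 and 0.18. These bounds describe signal near the maximum and do not show equal RNA.

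**Figure D2:**
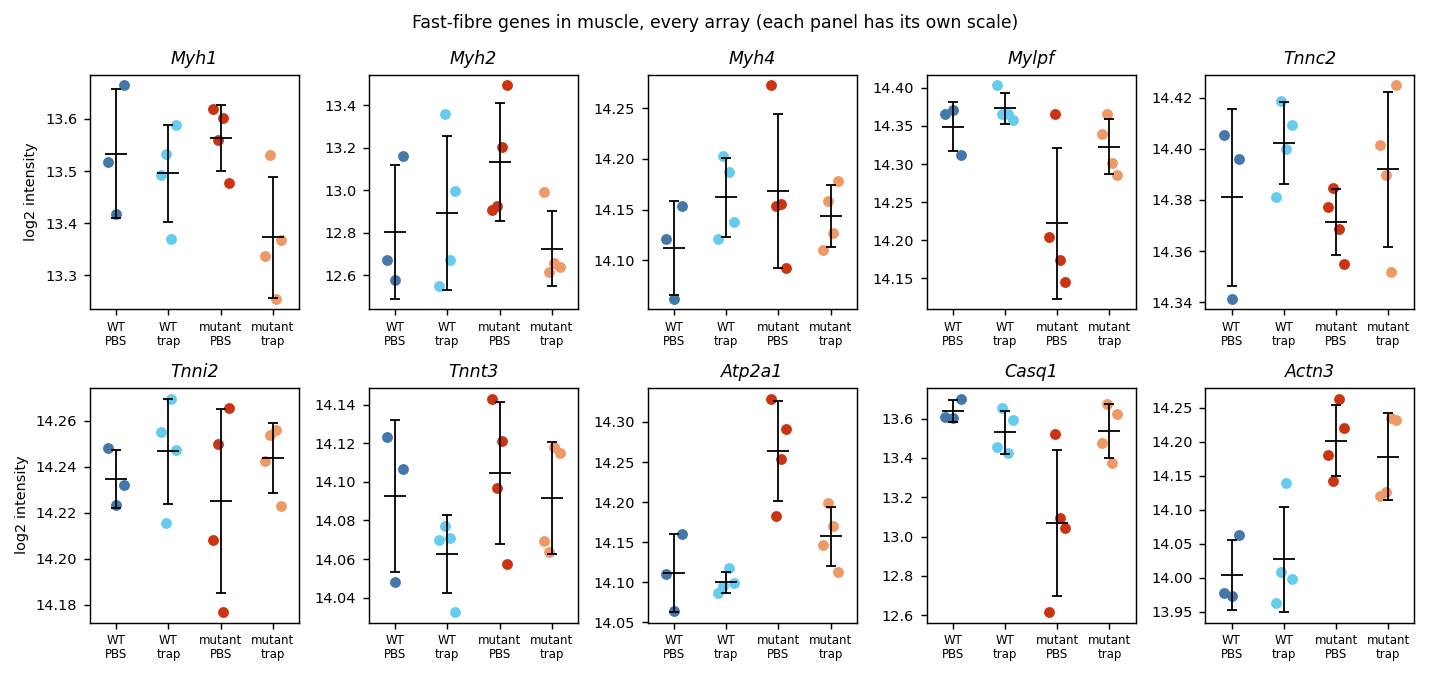
Log2 intensity of each member on every muscle array (points) with group mean and SD (bars), for 3 untreated wild types and 4 animals in each other group. The untreated mutants lie lower for Casq1 (12.62 to 13.52) and higher for Atp2a1 and Actn3 than the untreated wild types, while each troponin stays within 0.11 over all 15 arrays, on an expanded scale.

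**Figure D3:**
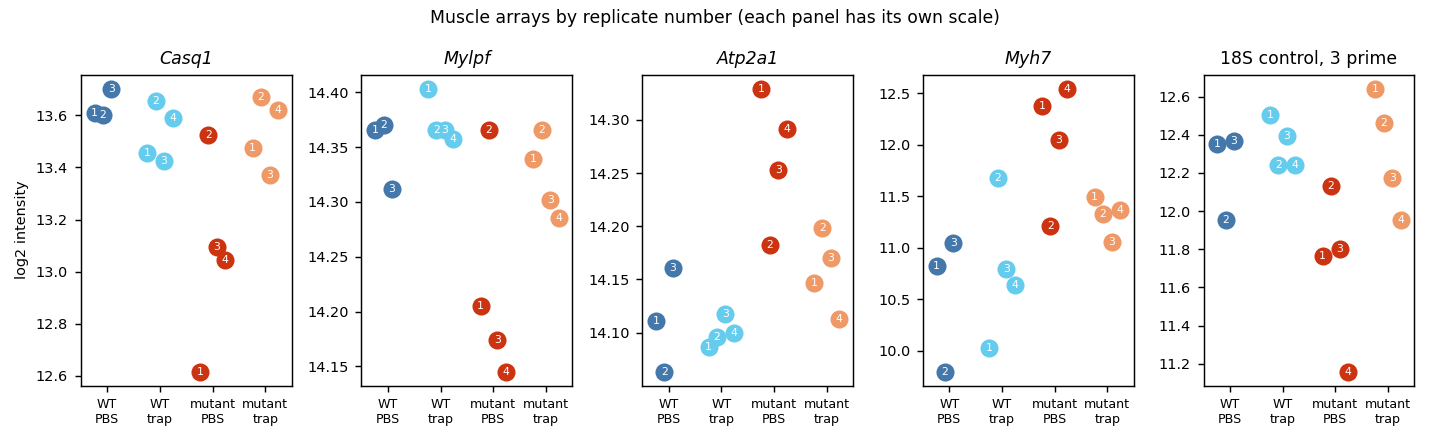
Log2 intensity on each muscle array, marked with its replicate number, for Casq1, Mylpf, Atp2a1, the slow heavy chain Myh7 and the 3 prime 18S control. Untreated mutant 2 lies nearest to the wild types among the untreated mutants in all 5 panels.

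Mutant 2 stood apart from the other untreated mutants in the same direction for several genes, as the plot of arrays by replicate number shows. Its Myh7 signal was 11.21, against 12.05 to 12.54 in the other mutants and 9.80 to 11.05 in the wild types. Across all 15 muscle arrays Mylpf correlated with Casq1 at r = 0.77 and with Atp2a1 at r = -0.83. These are descriptions over arrays that share the groups, and the correlations over all pairs of members were not all of one sign.

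The next comparison set trap-treated mutants against untreated mutants, which asks what blocking activins does in the diseased animals. It uses the same untreated mutant arrays as the first comparison, so an excursion of those arrays appears in both with opposite signs. Of 10 members, 0 passed, against 6.33% of all genes, and 2 of 10 (Casq1 and Myh2) had an unadjusted p under 0.05, against 21.6%. Casq1 was higher and Myh2 lower in the treated mutants by these unadjusted values. The arrays of the 2 groups overlapped for all 10 members, while 11% of all genes did not overlap.

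Casq1 read 13.47, 13.67, 13.37 and 13.62 in treated mutants 1 to 4, above untreated mutants 1, 3 and 4 but overlapping mutant 2 at 13.52. The fold change was 1.38 (95% interval 1.11 to 1.71), a log2 difference of 0.47 ± 0.15 (SE, adjusted p = 0.0694). The value passed with array weights (adjusted p = 0.0196), the level-following prior (0.0475), quantile normalization (0.0379) and only genes above the median level (0.0441). With the 3 prime, middle and 5 prime 18S covariates it was 0.37, 0.24 and 0.33 (adjusted p = 0.487, 0.789 and 0.66), and with the actin covariate 0.38 (0.312). Without untreated mutant 2 it was 0.62 (adjusted p = 0.00572), and over all alternatives the adjusted p ran from 0.00572 to 0.789. Of the 8 fibroblast markers, 6 passed as higher in the same comparison, against 4.18% of all genes called higher. Their summed signal was 13.84 to 14.25 in treated mutants, and their part in the Casq1 value was not tested. Among other lists 2 of 7 tendon and 2 of 8 macrophage markers rose and 2 of 7 smooth muscle markers fell. Of 5 satellite cell markers 1 rose and 1 fell. The 3 prime 18S control read 11.95 to 12.64 in the treated mutants.

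Myh2 read 12.99, 12.61, 12.66 and 12.64 in treated mutants 1 to 4. Treated mutant 1 lay among the untreated mutants and the other 3 lay below all of them. The difference was -0.41 ± 0.18 (SE, adjusted p = 0.211), and with the 5 prime 18S covariate it was 0.0094 (adjusted p = 0.994). Myh1 read 13.34, 13.53, 13.26 and 13.37 in treated mutants and 13.62, 13.56, 13.60 and 13.48 in untreated mutants, with treated mutant 2 inside the untreated range. It differed by -0.19 ± 0.092 (SE, adjusted p = 0.243), and its second probe set by -0.24 ± 0.098 (adjusted p = 0.159). Myh4 differed by -0.025 (95% interval -0.19 to 0.14).

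Atp2a1 read 14.15, 14.20, 14.17 and 14.11 in treated mutants, and treated mutant 2 lay above untreated mutant 2. The difference was -0.11 ± 0.076 (SE, adjusted p = 0.47). Mylpf read 14.34, 14.37, 14.30 and 14.29 and differed by 0.10 ± 0.079 (adjusted p = 0.526), and by -0.020 and -0.023 with the middle and 5 prime 18S covariates. Actn3 read 14.12, 14.13, 14.23 and 14.23, overlapped the untreated mutants and differed by -0.024 ± 0.080 (adjusted p = 0.911). The troponins differed by 0.021 (Tnnc2), 0.019 (Tnni2) and -0.013 (Tnnt3).

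**Figure D4:**
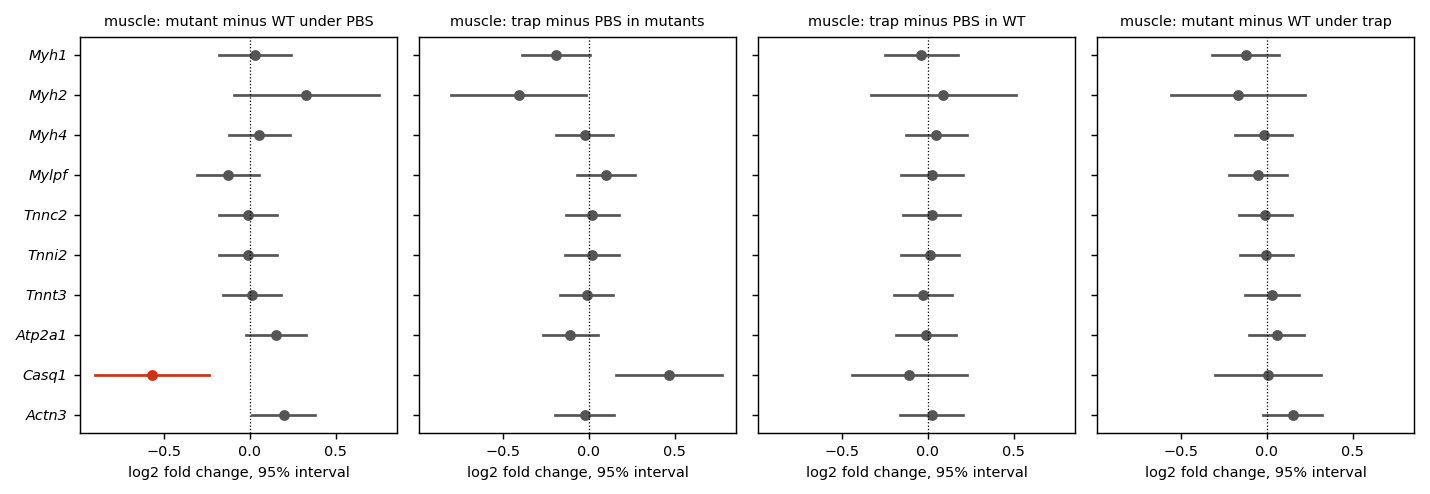
Log2 fold change of the 10 members with 95% intervals in 4 muscle comparisons, with a member that passed the adjusted threshold in red. Casq1 is at -0.57 in untreated mutants and is the single red point, and it lies at 0.47 for the trap in mutants.

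The trap in wild-type animals asks what the treatment does in healthy muscle. Of 10 members, 0 passed, against 0.0619% of all genes, and 0 of 10 had an unadjusted p under 0.05, against 11.6% of all genes. The differences ran from -0.11 (Casq1) to 0.090 (Myh2). Casq1 read 13.45, 13.65, 13.42 and 13.59 under the trap, so 1 treated animal lay among the untreated wild types. Myh2 read 12.55, 13.36, 12.67 and 12.996 and spanned the whole untreated range. The arrays of the groups overlapped for all 10, against 13.6% of all genes without overlap.

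Under the trap, mutants and wild types were compared in the same way. Of 10 members, 0 passed, against 1.66% of all genes, and 0 of 10 had an unadjusted p under 0.05, against 12.7%. Casq1 differed by 0.0046 (95% interval -0.30 to 0.31), and the widest difference upward was Actn3 at 0.15 ± 0.080 (SE, adjusted p = 0.476). Wild type 3 under the trap read 14.14 for Actn3 and lay among the treated mutants, and the other 3 read 13.96 to 14.01. Myh2 was the widest downward, at -0.17 ± 0.18 (adjusted p = 0.787).

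The interaction asks whether the trap acted differently in mutants and wild types. Of 10 members, 0 passed, against 0.169% of all genes, and 1 of 10, Casq1, had an unadjusted p under 0.05, against 14.6%. Casq1 had an interaction of 0.57 ± 0.21 (SE, adjusted p = 0.246), and Myh2 of -0.50 ± 0.27 (adjusted p = 0.403). The Casq1 interaction passed without untreated mutant 2 (0.73, adjusted p = 0.0382), and over all alternatives its adjusted p ran from 0.0382 to 0.764. A different effect of the trap in the 2 genotypes was therefore not shown for any member by the fit of all arrays.

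Treated mutants were last set against untreated wild types. Of 10 members, 0 passed, against 0.973% of all genes, and 0 of 10 had an unadjusted p under 0.05, against 11.1%. Casq1 was at -0.10 (95% interval -0.44 to 0.23), which does not show that its level was restored. Actn3 was at 0.17 ± 0.087 (SE, adjusted p = 0.489) and was the 1 member of 10 whose arrays did not overlap, against 11.7% of all genes.

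By group mean, Casq1 was ordered from 13.64 ± 0.055 (SD, n = 3) in untreated wild types through 13.53 ± 0.14 (n = 4) in treated mutants and 13.53 ± 0.11 (n = 4) in treated wild types to 13.07 ± 0.37 (n = 4) in untreated mutants. Each neighbouring pair of groups in that order had overlapping arrays. Myh2 was ordered from 13.13 ± 0.28 in untreated mutants through 12.89 ± 0.36 in treated wild types and 12.80 ± 0.31 in untreated wild types to 12.72 ± 0.18 in treated mutants, and neighbours again overlapped. Actn3 was highest in the mutant groups, at 14.20 ± 0.052 untreated and 14.18 ± 0.063 treated, and lower in the wild-type groups, at 14.03 ± 0.077 treated and 14.00 ± 0.051 untreated. Atp2a1 was at 14.26 ± 0.063 in untreated mutants and between 14.10 and 14.16 on average in the other groups.

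Other genes of the fast and slow programmes were taken as lists. Of 11 measured further fast sarcomere genes, 0 passed in limma's fit of untreated mutants, against 16% of all genes, with 2 at an unadjusted p under 0.05, against 29.2%. Their median was -0.080, against -0.046 over all genes and 0.021 over the 10 members. Under the trap in mutants 0 of 11 passed, against 6.33% of all genes, with 3 at an unadjusted p under 0.05, against 21.6%, and the median was 0.058. Without untreated mutant 2, 1 fell in untreated mutants and 1 rose under the trap, and without untreated mutant 1 the medians were -0.019 and 0.00065. Of 11 enzymes of fast glycolytic metabolism, 0 passed in either comparison, with 3 at an unadjusted p under 0.05 in each, against the same shares of all genes, and the medians were -0.14 and 0.18. Without untreated mutant 2, 4 fell in untreated mutants and 3 rose under the trap, and without untreated mutant 1 the medians were 0.0047 and 0.11. With the middle 18S covariate the medians were -0.079 and 0.031.

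Of 14 slow-fibre sarcomere genes, 5 rose in untreated mutants, against 6.93% of all genes called higher, and the other 9 did not pass. All 14 differences were positive, with a median of 0.72. They were the slow heavy chain Myh7 (1.48 ± 0.36), troponin C Tnnc1 (1.03 ± 0.24), the slow tropomyosin Tpm3 (1.01 ± 0.30), the Z-disc protein Myoz2 (0.83 ± 0.17) and the slow calcium pump Atp2a2 (0.71 ± 0.21). The slow counterpart of Casq1, Casq2, was at 0.18 ± 0.28 (adjusted p = 0.735). With the 3 prime, middle or 5 prime 18S signal as a covariate 0 of 14 passed and the medians were 0.48, 0.40 and 0.12, with 9 of 14 differences positive in the last. With the actin signal 1 passed and the median was 0.46. The count was 8 without untreated mutant 2, 3 without untreated mutant 1, 3 or 4, and 1 without untreated wild type 2. Under the trap in mutants 1 of 14 fell (Myoz2, -0.76 ± 0.16), against 2.15% of all genes called lower, and the median was -0.41. The count there was 3 without untreated mutant 2 and 1 without any other single array, and 2 with array weights, with the mean of all probe sets or with only genes above the median level. It was 0 with each of the 4 covariates, where the median was -0.19 with the 3 prime 18S or the actin signal, -0.21 with the middle 18S signal and 0.098 with the 5 prime one.

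Genes that couple excitation to calcium release, the partners of Casq1, were mixed. Of 15, 3 fell in untreated mutants, against 9.04% of all genes called lower: the triad protein Sypl2 (-1.03 ± 0.32), the calcium channel adaptor Stac3 (-0.60 ± 0.15) and the junctophilin Jph2 (-0.59 ± 0.17). The release channel Ryr1 was at 0.29 ± 0.12 (adjusted p = 0.114), and triadin (Trdn), which tethers calsequestrin to it, at 0.13 ± 0.10 (adjusted p = 0.453). With the 3 prime 18S signal as a covariate 1 of 15 passed, and with the middle or 5 prime 18S or the actin signal 0 did. The count of falls was 2 without untreated mutant 1 or 3, 1 without untreated wild type 2 or 3 and 0 without untreated wild type 1. Under the trap in mutants 3 of 15 rose, against 4.18% of all genes called higher: Sypl2 (1.16 ± 0.30), Jph2 (0.67 ± 0.16) and Asph (0.44 ± 0.10). In the same comparison the channel subunit Cacng1 fell (-0.48 ± 0.14), and 0 of the 15 passed with any of these covariates. The count of rises was 6 without untreated mutant 2, 2 without untreated mutant 1 or treated mutant 2, 1 without untreated mutant 3 or treated mutant 4, and 0 without treated mutant 1. The count of falls stayed at 1 without untreated mutant 2 and was 0 without any other single array.

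Developmental genes and regulators of fibre type completed the lists. Of 8 developmental genes, the perinatal heavy chain Myh8 (1.05 ± 0.26) and the acetylcholine receptor subunit Chrna1 (0.86 ± 0.26) rose in untreated mutants, and the cardiac actin Actc1 fell (-1.74 ± 0.48), against 6.93% of all genes called higher and 9.04% called lower. Under the trap in mutants Actc1 rose (1.65 ± 0.45), the 1 of 8 that passed, against 6.33% of all genes called in either direction. Of 16 measured regulators, 4 rose in untreated mutants, against the same 6.93%: Vgll2 (0.98 ± 0.21), Mef2d (0.59 ± 0.18), the oxidative coactivator Ppargc1a (0.54 ± 0.15) and Nfix (0.49 ± 0.14). Ppargc1a fell under the trap (-0.66 ± 0.14), the 1 of 16 that passed, against 2.15% of all genes called lower. With the 3 prime 18S covariate 0 of 8 developmental genes and 1 of 16 regulators passed in untreated mutants, with the middle or 5 prime one 0 of each did, and with the actin covariate 1 of each did. Under the trap 0 of either list passed with any of the 4 covariates. In untreated mutants against untreated wild types, 0 developmental genes and 1 regulator passed without untreated wild type 2, and 1 regulator passed without untreated mutant 1. Without untreated wild type 1 or 3 or untreated mutant 3, 1 developmental gene rose and 0 fell, and without untreated mutant 1 or 4, 1 rose and 1 fell. Regulators numbered 2 without untreated mutant 4 or wild type 3. Actc1 under the trap no longer passed without untreated mutant 3 or 4 or any 1 of the treated mutants, and without untreated mutant 2 the trap's falls numbered 3 developmental genes and 2 regulators.

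**Figure D5:**
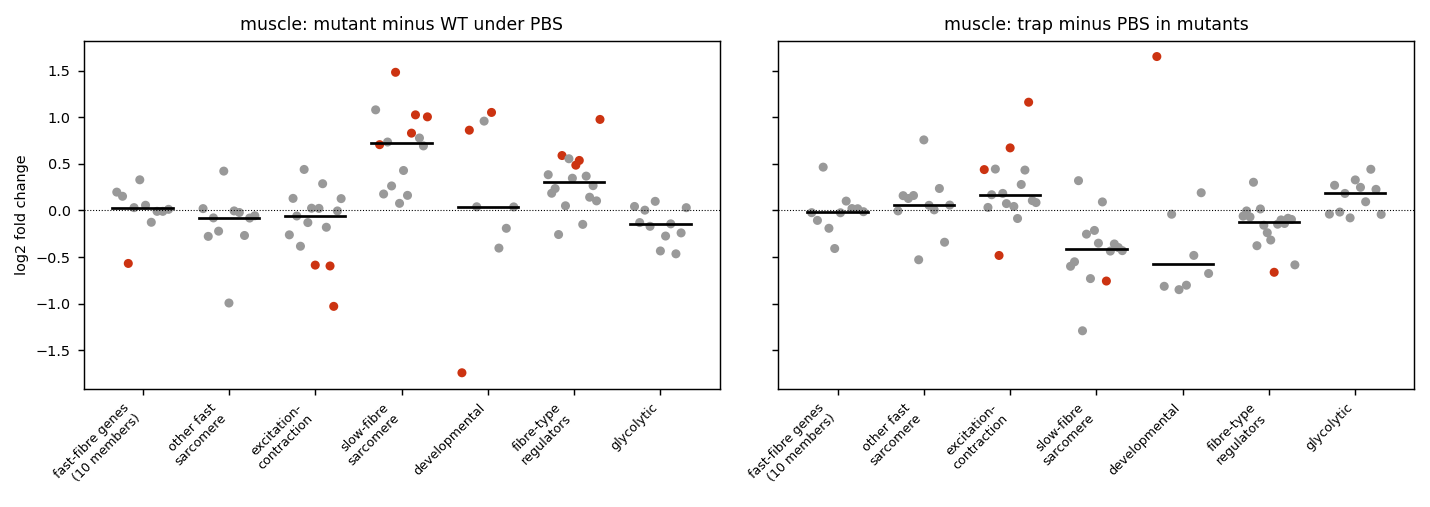
Log2 fold change of each gene by list in untreated mutants against untreated wild types (left) and for the trap in mutants (right), with genes past the adjusted threshold in red and list medians as bars. The fast set lies near 0 with Casq1 at -0.57, and the slow list has a median of 0.72 on the left and -0.41 on the right. Over all alternatives (not plotted) these medians ran from 0.12 to 0.92 and from -0.56 to 0.098. The 5 prime 18S covariate gave 0.12 and 0.098, and on the left that fit cannot tell genotype from control signal.

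Kidney served as a reference tissue that builds no sarcomeres. Mean signals of the 12 probe sets in kidney were 2.93 to 5.57, below the array medians of 6.09 to 6.24, and at such levels a probe set reads mostly background. In untreated wild types muscle signal exceeded kidney signal by at least 8.08 (Atp2a1) to at least 11.05 (Myh4), lower bounds because the kidney values are mostly background and most muscle values lie near the maximum. All 10 members passed in that direction, against 36.1% of all genes (64.6% passed in either direction). In untreated mutant kidney 2 of 10 were lower, Mylpf (-0.29 ± 0.12, adjusted p = 0.0447) and Casq1 (-0.49 ± 0.19, adjusted p = 0.0412), where 51.6% of all genes passed and 26.7% passed in the lower direction. Under the trap in mutant kidney 0 of 10 passed, against 2.4% of all genes, and 0 had an unadjusted p under 0.05. Among trap-treated kidneys 4 of 10 were lower in mutants than in wild types, where 46.4% of all genes passed and 24.2% passed in the lower direction. They were Casq1 (-0.72 ± 0.17), Mylpf (-0.62 ± 0.11), Atp2a1 (-0.62 ± 0.23) and Myh1 (-0.34 ± 0.099). The other Myh1 probe set averaged 2.96 in trap-treated mutant kidney and 3.07 in trap-treated wild-type kidney, and its arrays overlapped.

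Genes whose signal followed the heavy chains most closely over the 15 muscle arrays were taken from 8881 genes above the median level, with the members left out. For Myh1 they were Arhgap23 (r = 0.80), Pmepa1 (0.74) and Meaf6 (0.73). For Myh2 they were Lpp, Plp2 and Hdgfl2, each at r = 0.89. For Myh4 they were Senp6 (r = 0.89), Iars (0.82) and Trim41 (0.81). Myh1 correlated with Myh2 at r = 0.43 and with Myh4 at r = 0.34, and Myh2 with Myh4 at r = 0.098. These values lie below those of the genes named for each chain.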

How the data were processed

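RNA of both tissues was measured on Affymetrix Mouse Genome 430 2.0 chips. The values used are the authors' deposited log2 intensities, 1 for each probe set on an array. That they are log2 was inferred from their range, and the authors' normalization is not given in the sources used. The number of arrays limits the precision. Of 35088 probe sets, 31563 had 1 gene symbol, 825 several and 2700 none. Where a gene had several, the one with the highest mean signal in the tissue stood for it, and no filter was applied.

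Each tissue was fitted with limma 3.58.1 (R 4.3.3), with a mean per group and a moderated spread. A gene passed, or was called, when its Benjamini-Hochberg adjusted p, over 17782 genes, was under 0.05. Tissues were compared in 1 fit with the animal as a random block (correlation 0.0749). The muscle fit was tested on simulated data for untreated mutants against untreated wild types, and the other fits were not. Figures used Python 3.11.15 with matplotlib 3.10.9.

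All members are named in the muscle comparisons. Of other lists, the 2 called genes with the largest change are named (4 for slow and developmental lists), and further called genes and counterparts were named after their values were seen. The members and the 17 other lists were chosen with earlier results of these data known. The 3 nearest genes of each heavy chain, other than members, were ranked by Pearson correlation. Alternatives covered probe set choice, a level filter, quantile normalization, centring, array weights, the prior, the arrays fitted, RNA control covariates, the replicate number as a block and leaving out each array.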

Additional observations from a re-analysis of the deposited data

Results flagged for a closer look

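Of 72 groups of 4 arrays (12 probe sets, both tissues), 3 held an array whose gap to its nearest neighbour was large for the group's range, and chance gives about 1 in 20. In treated mutant muscle, replicate 1 read 12.99 for Myh2 and the other 3 read 12.61 to 12.66. In trap-treated wild-type muscle, replicate 4 read 14.03 for Tnnt3 and the other 3 read 14.07 to 14.08. In untreated mutant kidney, replicate 4 read 4.11 for Tnni2 and the other 3 read 4.39 to 4.45.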

How the results depend on the processing

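Over 60 muscle results (10 members in 6 comparisons) and 1230 alternative values, 1213 kept their side of the threshold, 9 lost it (all for Casq1 in untreated mutants), 8 gained it and 0 called values changed sign. In untreated mutants 1 member was called. The count was 0 with each of the 3 18S covariates, with the actin covariate and with only the groups compared, 2 with array weights and with the level-following prior, and 0 to 1 without single arrays. For the trap in mutants it was 0, and 1 with array weights, the level-following prior, quantile normalization or only genes above the median level, and 0 to 1 without single arrays. For the interaction it was 0 to 1 without single arrays. In untreated mutant kidney it was 2, and 6 with array weights, 5 with median centring, 1 with the 3 prime and 5 prime 18S covariates, 0 with the middle one, the actin covariate or only genes above the median level, and 0 to 3 without single arrays. Counts over all muscle genes ran from 559 to 3607 (untreated mutants, 2840), 36 to 2140 (trap in mutants, 1125), 1 to 130 (trap in wild types, 11), 34 to 996 (mutants under the trap, 295), 3 to 569 (interaction, 30) and 54 to 341 (treated mutants against untreated wild types, 173). Arrays of the same replicate number did not deviate together (median r = -0.017 over 21 muscle pairs), so the numbers were not taken as pairs. With the replicate block Casq1 was -0.58 (adjusted p = 0.0188) in untreated mutants, 1 member was called there and 0 for the trap in mutants. Signal near the array's maximum may limit what the probe sets of 7 of the 10 members can show. This was not tested, and a second Myh4 probe set lay 0.80 to 1.40 below the maximum.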

Other observations

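Casq1 was outside the rule for nearest genes and was looked up after its values were seen. Over the 15 muscle arrays the genes that followed it most closely were the glucose-6-phosphate transporter Slc37a4 (r = 0.97), Wnt5a (0.96) and Klhdc10 (0.96). All of these arrays share the 4 groups, and no cause is drawn from the match.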
